A study of Mus musculus with 14 samples.

Results

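Bcl2l1, Bnip3l and Foxo3 are 3 genes with roles in the survival of red cell precursors and in the removal of their mitochondria, and their transcripts are described here in the spleens of the mouse strains AcB55 and AcB61. They were found as the array features whose platform annotation gives one of these symbols alone, which held for 5 features, 1 each of Bcl2l1 and Foxo3 and 3 of Bnip3l. All 5 gave a value on all 14 arrays, and the genes are 3 of the 6288 with a single symbol that were measured.

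Red cell precursors leave the cell cycle, shed their nucleus and then lose their mitochondria. Bcl2l1 encodes Bcl-xL, an anti-apoptotic protein of the BCL2 family that keeps late precursors alive and whose level in these cells rises with erythropoietin signalling. Bnip3l encodes Nix, a protein of the outer mitochondrial membrane with a BH3-like region that binds proteins of the autophagosome and is needed for reticulocytes to clear their mitochondria. Foxo3 encodes a forkhead transcription factor that is held in the cytoplasm by phosphorylation through the PI3K and Akt pathway and that, in the nucleus of erythroid cells, turns on antioxidant and autophagy genes. The mouse spleen is a site of red cell production, above all under anaemic stress, so that spleen RNA can carry transcripts of these cells beside those of lymphocytes, macrophages and stroma.

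AcB55 (6 arrays) and AcB61 (8 arrays) are recombinant congenic strains, inbred lines with segments of the C57BL/6 genome on an A/J background, and A/J spleen RNA filled the second channel of every array. The series carries malaria resistance in its title, and the labels give no infection, age or sex of the mice and no animal behind an array. Positive values are likely higher in the strain than in A/J, because the strain is given as the first channel of each array; either dye was used for labelling, and the dye of a given array is not stated. All values are log2 ratios to A/J, with SD over arrays, so levels in A/J itself and the ranking of one gene's level against another's are not known. The labelled tissue could not be checked against marker levels for the same reason. Replicates are numbered in order of deposit, and since no label ties an array to an animal, the p-values may measure technical spread alone.

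The AcB61 arrays fell into sets, which bears on Bcl2l1 in particular. Over all features, AcB61 replicates 2, 6 and 8 correlated with each other at r = 0.788 to 0.833 and replicates 3, 5 and 7 at 0.704 to 0.795, but the one set with the other at only -0.0894 to 0.151. Replicates 1 and 4 lay between the sets, at 0.368 to 0.638 with the first and 0.365 to 0.612 with the other. The labels give nothing that separates the sets, and each holds arrays from both of the number ranges in the AcB61 titles. Since the dye of each array is not stated, whether the sets differ in dye is not known. In AcB55, replicates 1 and 2 correlated with the AcB61 arrays at a median of 0.401, against 0.162 for replicates 3 to 6. The 3 genes are given with and without these arrays, each list of other genes is followed by the named calls that were lost and the counts that moved most without them, and no correlation between the 3 genes is tested over arrays, since no set holds 6 arrays.

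Bcl2l1 was higher in AcB55 than in A/J and not in AcB61 as a whole. In AcB55 it read 1.18, 0.86, 0.42, 1.05, 0.86 and 0.62 on replicates 1 to 6. Every AcB55 array was above 0, and replicate 3 was the lowest. In AcB61 it read -0.04, -0.41, 0.40, 0.07, 0.65, -0.56, 0.88 and -0.40 on replicates 1 to 8. Replicates 3, 5 and 7 were well above 0, replicates 2, 6 and 8 well below it, and replicates 1 and 4 close to it, the same division as in the correlations over all features. With only 1 feature of Bcl2l1, this division could not be compared between features, as it is for Bnip3l below. The strains overlapped, since AcB61 replicates 5 and 7 lay inside the AcB55 range and the other 6 arrays below it.

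**Figure D1:**
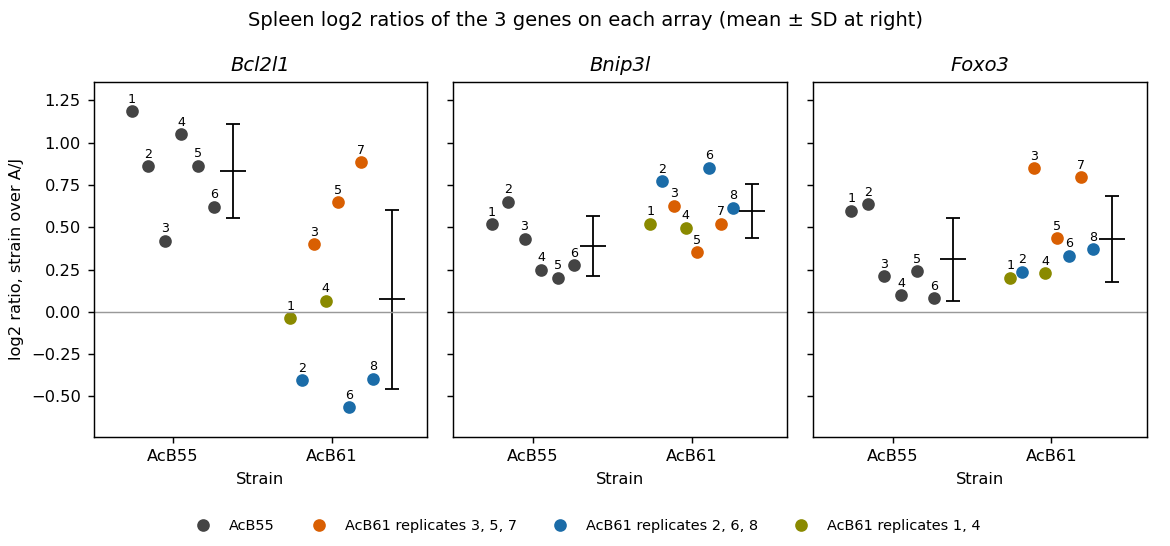
The y axis is the log2 ratio of the strain to A/J, and each point is 1 array of AcB55 or AcB61, numbered by replicate, with the mean ± SD at the right of each strain. Bcl2l1 spans -0.56 to 0.88 over the AcB61 arrays and 0.42 to 1.18 over those of AcB55, whereas all Bnip3l and Foxo3 points lie above 0.

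The mean of Bcl2l1 in AcB55 was 0.83 ± 0.28 (n = 6), a 1.78-fold level (95% interval 1.42 to 2.23), and it passed the test (limma, adjusted p = 0.000654). It ranked 30 from the highest among the 6286 genes tested. In AcB61 the mean was 0.07 ± 0.53 (n = 8), with an interval of -0.20 to 0.35, and did not pass (limma, adjusted p = 0.765). The strains differed by -0.76 ± 0.20 (SE), AcB61 minus AcB55, or 0.591-fold with an interval of 0.44 to 0.794 (limma, adjusted p = 0.0225). An exact two-sided permutation of the strain labels over the 3003 arrangements gave p = 0.0123 for this difference, or 0.037 when adjusted over the 9 tests of the 3 genes. By rank from the highest, its difference stood at 6273 of the 6286 genes. Of all features, 20.7% passed in AcB55 (9.77% higher), 23.8% in AcB61 (10.5% higher) and 12.3% in the comparison of the strains (5.29% higher and 6.98% lower in AcB61), so that a call alone is common in these data.

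What AcB61 showed for Bcl2l1 depended on which arrays were kept. Without replicates 2, 6 and 8 its AcB61 mean was 0.39 and passed (limma, adjusted p = 0.0221), and the difference from AcB55 shrank to -0.44 and did not pass (0.0634). Without replicates 3, 5 and 7 the AcB61 mean was -0.27 and did not pass (0.0653), and the difference widened to -1.10 (0.000149). The difference also missed the threshold without AcB55 replicate 4 (-0.72, adjusted p = 0.0525) and with the number ranges of the titles as a block (-0.89, 0.0784). In the range with 3 arrays of each strain it was -0.80 (0.441), a fit in which 1 feature in all passed.

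Binding of GATA-1 and of STAT5, which acts below the erythropoietin receptor, is known to raise Bcl2l1 in erythroid cells, so the 250 bases before each annotated start of the gene were searched for short forms of such motifs on both strands. The RefSeq table (GRCm38.p6) lists 3 starts of Bcl2l1 and 1 of Foxo3. The GATA motif AGATAA occurred before 1 of the 3 Bcl2l1 starts, beginning 41 bases upstream. It occurs before 9.99% of the 32851 starts in the table, a share per start. With 3 starts and several motifs searched, at least 1 match is more likely than that share. The 30 bases around the match, from the minus strand at chr2:152828513-152828542 and with the motif in capitals, are shown because Bcl2l1 is the gene that separated the strains.
Bcl2l1 GATA motif: attgtgacccaaAGATAAagagagcagagg
The motifs TTCNNNGAA of STAT factors (7.02% of all starts), GTAAACA of FOXO factors (3.17%), CCACACCC of KLF1 (3.2%) and ACGTG of the hypoxia-inducible factors (16.6%) had no match in these windows of Bcl2l1 or Foxo3. ACGTG may lie within longer motifs of other factors. A match of letters is a description and shows no binding.

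Bnip3l was higher than in A/J on every array of both strains. Averaged over its 3 features it read 0.52, 0.65, 0.43, 0.25, 0.20 and 0.28 on AcB55 replicates 1 to 6. Replicates 1 and 2 were the highest of these. In AcB61 it read 0.52, 0.77, 0.63, 0.50, 0.35, 0.85, 0.52 and 0.62 on replicates 1 to 8. The strains overlapped, with replicates 2 and 6 of AcB61 above every AcB55 array and replicates 4, 5 and 6 of AcB55 below every AcB61 array.

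The mean of Bnip3l was 0.39 ± 0.18 in AcB55 (n = 6; 1.31-fold, interval 1.19 to 1.44; limma, adjusted p = 0.000417) and 0.60 ± 0.16 in AcB61 (n = 8; 1.51-fold, 1.39 to 1.65; adjusted p = 2.66e-06). Among genes it ranked 277 from the highest in AcB55 and 121 in AcB61. The difference of 0.21 ± 0.09 (SE), higher in AcB61, did not pass over all features (limma, adjusted p = 0.14), with an interval of 0.02 to 0.40. It passed only when AcB55 replicates 1 and 2 were left out (0.31, adjusted p = 0.036).

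The 3 features of Bnip3l had the same sign and differed in size and in their order over arrays. Feature 9811 gave 0.56 ± 0.19 in AcB55 and 0.81 ± 0.35 in AcB61, feature 14083 gave 0.30 ± 0.18 and 0.58 ± 0.29, and feature 1484 gave 0.30 ± 0.20 and 0.39 ± 0.23. Each passed in both strains when tested apart (limma, adjusted p = 5.79e-06 to 0.0232). On AcB61 replicates 2, 6 and 8, feature 9811 read 1.32, 1.20 and 1.04 and feature 14083 read 0.92, 0.99 and 0.75. These were the highest AcB61 values of both features. Feature 1484 read 0.07, 0.37 and 0.06 on the same arrays, of which replicates 2 and 8 were its lowest. On replicates 3, 5 and 7 feature 1484 read 0.67, 0.56 and 0.59, its highest values, and feature 9811 read 0.63, 0.36 and 0.50. Features of the same gene were thus high on different sets of AcB61 arrays, which the average of the 3 does not show. The part of the array sets in the level of Bnip3l was not tested. The AcB61 mean of the average was 0.50 without replicates 2, 6 and 8 and 0.65 without 3, 5 and 7, and passed in both.

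**Figure D2:**
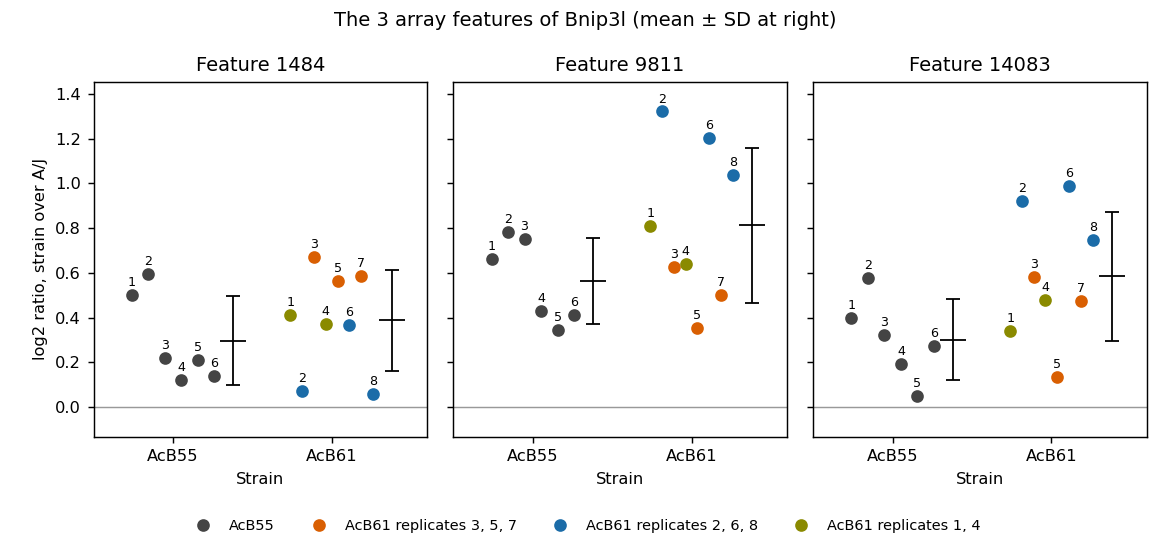
Each panel shows 1 of the 3 array features of Bnip3l, with the log2 ratio to A/J on the y axis and 1 point an array, numbered by replicate, and the mean ± SD at the right. On AcB61 replicates 2, 6 and 8 feature 9811 reads 1.04 to 1.32 while feature 1484 reads 0.06 to 0.37.

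Foxo3 was also higher on every array of both strains. It read 0.60, 0.63, 0.21, 0.10, 0.24 and 0.08 on AcB55 replicates 1 to 6. Replicates 1 and 2 stood above the other AcB55 arrays. In AcB61 it read 0.20, 0.24, 0.85, 0.23, 0.44, 0.33, 0.80 and 0.37 on replicates 1 to 8. Replicates 3 and 7 were the highest there, and the ranges of the strains overlapped over most of their length.

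The mean of Foxo3 was 0.31 ± 0.25 in AcB55 (n = 6; 1.24-fold, interval 1.08 to 1.42; limma, adjusted p = 0.022) and 0.43 ± 0.25 in AcB61 (n = 8; 1.35-fold, 1.20 to 1.51; adjusted p = 0.000804). The AcB55 call did not hold without replicate 1 (0.25, adjusted p = 0.0917), without replicate 2 (0.25, 0.0928) or without both (0.16, 0.341). The AcB61 call held without replicates 3, 5 and 7 (0.27, 0.0149). The strain difference of Foxo3, 0.12 ± 0.12 (SE), did not pass (limma, adjusted p = 0.561), and its interval of -0.14 to 0.38 leaves room for a difference in either direction.

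In AcB55 all 3 genes passed, with the largest mean for Bcl2l1, and in AcB61 Bnip3l and Foxo3 passed and Bcl2l1 did not. Both comparisons share the A/J channel, so they are not independent of each other. AcB61 replicates 2 and 6 had the highest averaged Bnip3l values (0.77 and 0.85) and the lowest Bcl2l1 values (-0.41 and -0.56), while AcB61 replicate 7 was high for Bcl2l1 (0.88) and Foxo3 (0.80). Replicate 8, with Bcl2l1 at -0.40, had Bnip3l at 0.62. The Bnip3l features differed here too, and feature 1484 read only 0.07 and 0.37 on replicates 2 and 6.

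For the lists of other genes below, the share of all features called, 20.7% in AcB55, 23.8% in AcB61 and 12.3% in the comparison of the strains, is what a count is read against. Other members of the BCL2 family did not share a direction. Of 8 listed anti-apoptotic genes 3 were measured. In AcB55 Bcl2l1 rose and Mcl1 (-0.44 ± 0.23), a short-lived anti-apoptotic protein of many blood cells, fell, whereas Bcl2l10 (0.09 ± 0.16) did not pass. In AcB61 none of the 3 passed the limma test, and Mcl1 read -0.22 ± 0.51. Mcl1 also divided the AcB61 arrays, from -0.45 to -1.07 on replicates 2, 6 and 8 to -0.11, 0.27 and 0.56 on replicates 3, 5 and 7. Of 15 listed pro-apoptotic genes, Bnip3l among them, 5 were measured, with a median of -0.04 in AcB55 and 0.00 in AcB61 against medians of 0.00 in both strains over all features. In AcB55 Bnip3l and Bcl2l13 (0.20 ± 0.17), also a mitochondrial receptor of autophagy, rose and Bok (-0.54 ± 0.38) fell. In AcB61 Bnip3l rose and Bik (-0.35 ± 0.21), a BH3-only protein, fell. Bnip3, the closest relative of Bnip3l, read -0.10 ± 0.06 in AcB55 and 0.00 ± 0.11 in AcB61 and passed in neither. Without AcB55 replicates 1 and 2 the AcB55 calls of Mcl1 (-0.33) and Bcl2l13 (0.22) were lost, and without AcB61 replicates 3, 5 and 7 Mcl1 fell in AcB61 (-0.49).

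Of 15 measured genes of caspases and the mitochondrial death pathway, 0 rose and 3 fell in AcB55 (median 0.04), and 7 rose and 1 fell in AcB61 (median 0.15). The 3 of 15 in AcB55 are close to the 20.7% of all features called there, and the 8 of 15 in AcB61 stand beside 23.8%. Between the strains 1 passed, Casp12, a caspase of the endoplasmic reticulum, which was 0.59 higher in AcB61 (limma, adjusted p = 0.0218), a call lost without AcB61 replicates 2, 6 and 8 (0.34, adjusted p = 0.0557) and without AcB55 replicates 1 and 2 (0.54, 0.0629). Between the strains 0 of the 15 passed by limma without AcB61 replicates 2, 6 and 8, and 4 passed, all higher in AcB61, without replicates 3, 5 and 7. The 3 that fell in AcB55 were Tmbim6 (-0.46 ± 0.14), an inhibitor of Bax-driven death, Bcap31 (-0.35 ± 0.11) and the apoptosis inhibitor Birc3 (-0.29 ± 0.21). Birc3 (-0.18 ± 0.16) fell in AcB61 too. Those that rose in AcB61 included Casp12 (0.61 ± 0.42), the co-chaperone Bag1 (0.35 ± 0.24), the protease Htra2 (0.30 ± 0.17), the channel Vdac3 (0.29 ± 0.26) and cytochrome c, Cycs (0.25 ± 0.19). Casp12 read 1.01, 0.93 and 1.13 on AcB61 replicates 2, 6 and 8, where Bcl2l1 was lowest, and 0.24, 0.02 and 0.18 on replicates 3, 5 and 7. Without replicates 2, 6 and 8 the AcB61 counts of the list were 5 higher and 2 lower, and without 3, 5 and 7 they were 4 and 0. Bag1, Htra2, Vdac3 and Birc3 lost their AcB61 calls without the first of these sets, and Cycs and Birc3 without the other. The AcB55 call of Birc3 was lost without AcB55 replicates 1 and 2.

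Of 38 measured genes of autophagy and mitophagy, Bnip3l included, 5 rose and 6 fell in AcB55 (median 0.02), and 10 rose and 2 fell in AcB61 (median 0.03). These are 11 and 12 of 38, against 20.7% and 23.8% of all features. Between the strains 5 were higher and 2 lower in AcB61. In AcB55 the selective autophagy receptor Tax1bp1 (0.49 ± 0.22), Bnip3l, Wipi2 (0.36 ± 0.20) and Atg9a (0.32 ± 0.18), both of early autophagosomes, and the receptor Nbr1 (0.17 ± 0.15) rose. The largest decreases there were Vps16 (-0.38 ± 0.19) of vesicle tethering, Lamp2 (-0.32 ± 0.13) of the lysosomal membrane and Pik3r4 (-0.32 ± 0.20) of the lipid kinase complex. In AcB61 the largest increases beside Bnip3l were Map1lc3a (0.57 ± 0.28) and Map1lc3b (0.36 ± 0.13), which encode the LC3 proteins that Nix binds, Becn1 (0.40 ± 0.33, n = 7), Atg7 (0.34 ± 0.25), needed to join LC3 to membranes, and Wipi2 (0.33 ± 0.28). The 2 that fell in AcB61 were Pik3r4 (-0.28 ± 0.15), as in AcB55, and Uvrag (-0.23 ± 0.16). Uvrag was also lower in AcB61 than in AcB55 (-0.315, limma, adjusted p = 0.0156). Map1lc3a was 0.63 higher in AcB61 than in AcB55 (limma, adjusted p = 0.0027) and Atg7 0.41 higher (0.0333), while Tax1bp1 was lower, with a difference of -0.39 (0.0219). Ulk1, which starts autophagy, rose in AcB61 (0.28 ± 0.22) and read 0.22 ± 0.17 in AcB55 without passing (0.051). Of other mitophagy receptors, Fundc1 rose in AcB61 (0.14 ± 0.04), and Fkbp8 read 0.08 and 0.07 and passed in neither strain. Phb2, also on the list, rose in AcB61 (0.32 ± 0.38). Without AcB55 replicates 1 and 2 the AcB55 counts were 2 higher and 5 lower, against 5 and 6 with them: Wipi2, Atg9a, Nbr1 and Lamp2 were among the calls lost. With the arrays centred on their medians they were 8 and 6, with Ulk1 and Map1lc3b among the genes gained. In AcB61, Becn1 and Atg7 lost their calls without replicates 2, 6 and 8, and Wipi2, Ulk1, Fundc1 and Phb2 without replicates 3, 5 and 7. The strain difference of Atg7 was lost without AcB61 replicates 2, 6 and 8 and without AcB55 replicates 1 and 2, and that of Tax1bp1 without AcB61 replicates 3, 5 and 7.

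**Figure D3:**
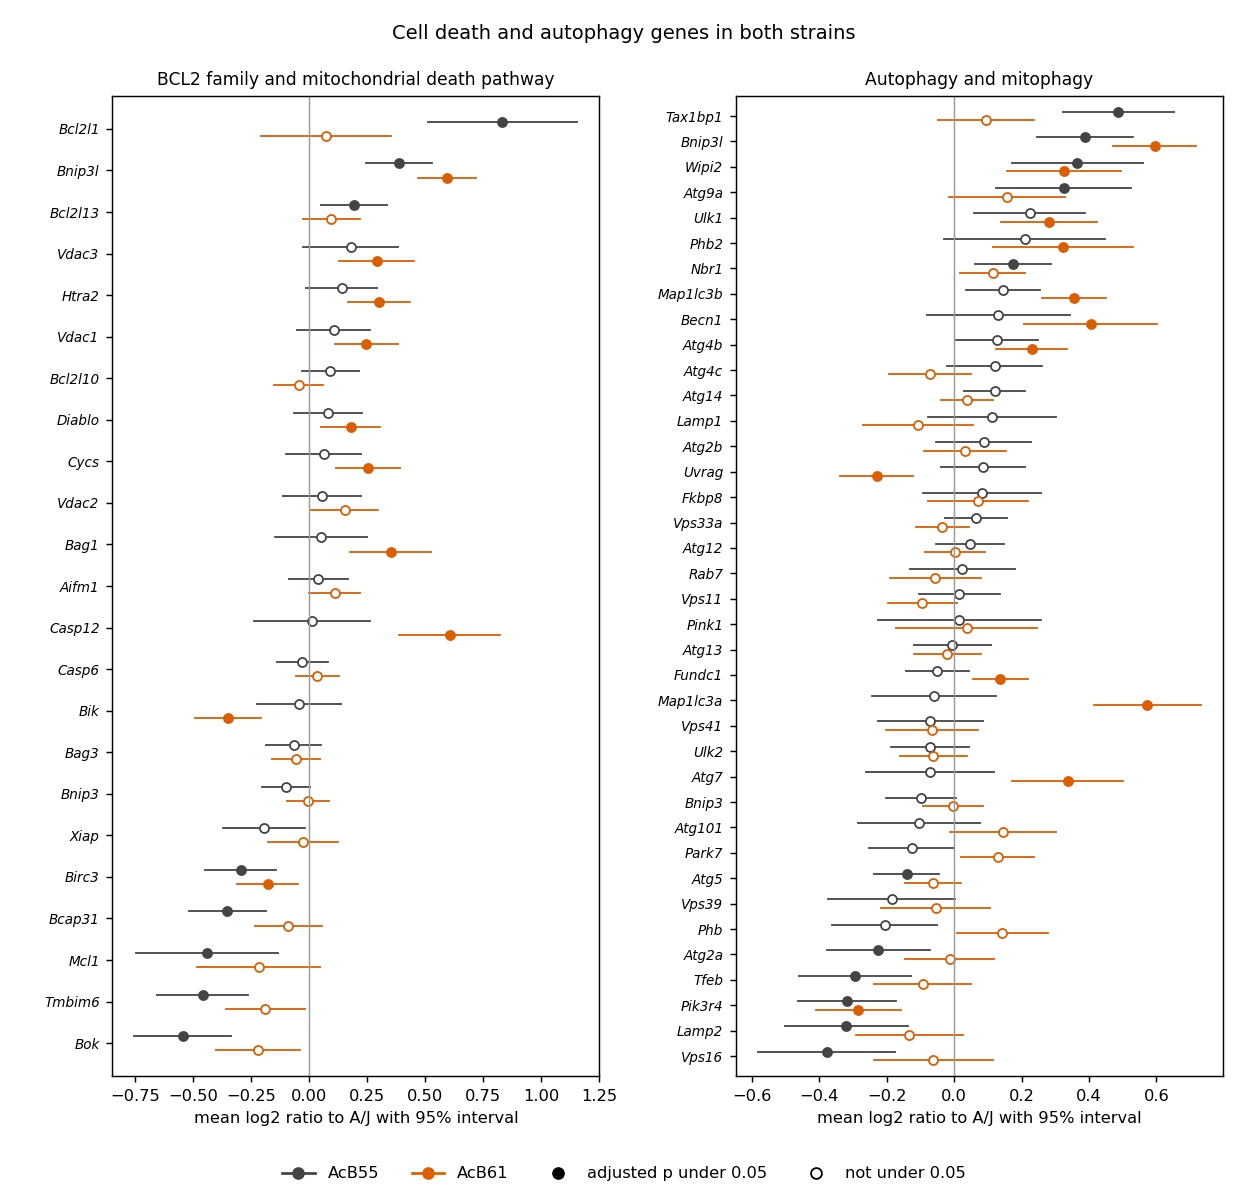
Mean log2 ratios to A/J with 95% intervals (x axis) for genes of the BCL2 family and mitochondrial death pathway (left) and of autophagy and mitophagy (right), with AcB55 in grey and AcB61 in orange, and filled points where the adjusted p is under 0.05. Bcl2l1 is at 0.83 in AcB55 and 0.07 in AcB61, while Map1lc3a is at -0.06 and 0.57.

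A list of genes of the mitochondrial surface and of fission and fusion also held the iron carrier Slc25a37. Of its 14 measured genes, 1 rose and 2 fell in AcB55 (median -0.01) and 4 rose and 1 fell in AcB61 (median 0.09). Between the strains 1 passed, Tomm5, which was 0.30 higher in AcB61 (limma, adjusted p = 0.0267). That call was lost without AcB61 replicates 2, 6 and 8 (0.27, 0.0584). The gene that rose in both strains was Slc25a37 (0.29 ± 0.14 and 0.52 ± 0.20), or mitoferrin, which carries iron into the mitochondria of red cell precursors. The import protein Tomm34 (-0.48 ± 0.15, n = 5, and -0.30 ± 0.19) fell in both. Tomm22 (0.22 ± 0.24), Tomm5 (0.20 ± 0.17) and Fis1 (0.25 ± 0.21, n = 7), which marks sites of fission, rose in AcB61. Slc25a37 without AcB55 replicates 1 and 2 read 0.23 in AcB55 and did not pass (limma, adjusted p = 0.0769), and the AcB55 counts were 0 higher and 3 lower. Tomm22 and Tomm5 lost their AcB61 calls without replicates 2, 6 and 8, and Fis1 without replicates 3, 5 and 7.

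Foxo3 rose in both strains while several genes of its own pathway fell in both. Of 19 measured FOXO factors and upstream genes, 4 rose and 7 fell in AcB55 and 2 rose and 5 fell in AcB61, with medians of -0.02 in each. Foxo1, the other measured FOXO factor and a regulator of lymphocytes, fell in both (-0.48 ± 0.25 and -0.46 ± 0.11). So did Stk4 (-0.63 ± 0.20 and -0.35 ± 0.18), a kinase that phosphorylates FOXO factors, Pik3cd (-0.47 ± 0.23 and -0.40 ± 0.29, n = 7), the leukocyte PI3 kinase, and Ywhaz (-0.46 ± 0.15 and -0.46 ± 0.32), a 14-3-3 protein. Usp7, a deubiquitinase, rose in both beside Foxo3 (0.27 ± 0.10 and 0.16 ± 0.14). Akt1 read 0.10 ± 0.08 and 0.09 ± 0.12 and passed in neither. The AcB61 call of Usp7 was lost without either set of 3 arrays, and that of Pik3cd without replicates 2, 6 and 8.

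Known FOXO target genes moved in both directions. Of 14 measured, 3 rose and 3 fell in AcB55 (median -0.01), and 4 rose and 3 fell in AcB61 (median 0.03). The antioxidant genes Cat, or catalase (0.82 ± 0.11 and 0.34 ± 0.39), and Prdx3 (0.49 ± 0.15 and 0.63 ± 0.33), a mitochondrial peroxiredoxin, rose in both strains. Btg1 (-1.0 ± 0.22 and -0.90 ± 0.40), which restrains growth, Ctsl (-0.41 ± 0.07 and -0.27 ± 0.16), a lysosomal protease, and Txnip (-0.24 ± 0.09 and -0.45 ± 0.20) fell in both. Cat was lower in AcB61 than in AcB55, with a difference of -0.48 (limma, adjusted p = 0.0379), and was the only one of the 14 to pass between the strains. That call was lost without AcB55 replicates 1 and 2 (-0.45, adjusted p = 0.0932), when 0 of the 14 passed by limma, and without AcB61 replicates 3, 5 and 7 (-0.30, 0.135). Without AcB61 replicates 2, 6 and 8 it held, and 4 of the 14 were higher and 1 lower in AcB61. The AcB61 rise of Cat against A/J was lost in that fit (0.06, 0.458).

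The list of erythropoietin and Kit signalling holds receptors, kinases and adaptors as well as cyclins and feedback genes that the pathway acts on. Of 35 listed genes only 13 were measured, and the genes of the erythropoietin receptor and of STAT5 were not among them. Of the 13, 1 rose and 6 fell in AcB55 (median -0.23), and 1 rose and 5 fell in AcB61 (median -0.06). The gene that rose in both was the cyclin Ccnd3 (0.53 ± 0.29 and 0.69 ± 0.39), which sets the number of divisions of red cell precursors. Ptpn6 (-0.67 ± 0.21 and -0.55 ± 0.38), a phosphatase of blood cells, Ccnd2 (-0.38 ± 0.11 and -0.36 ± 0.12) and the adaptor Grb2 (-0.31 ± 0.22 and -0.23 ± 0.24) fell in both. Jak2, the kinase of the erythropoietin receptor, read 0.11 ± 0.10 and 0.08 ± 0.06, and Kit read -0.03 ± 0.07 and 0.04 ± 0.11, and neither passed. The feedback inhibitors Cish (-0.27 ± 0.13) and Socs3 (-0.27 ± 0.08), both STAT5 targets, fell in AcB55 and read -0.06 and -0.07 in AcB61 without passing. Without AcB55 replicates 1 and 2 the AcB55 counts were 0 higher and 4 lower (median -0.10), since Ccnd3 (0.42, limma, adjusted p = 0.0733), Grb2 (-0.29, 0.0807) and Fasl lost their calls. The AcB61 call of Grb2 was lost without replicates 3, 5 and 7 (-0.07, 0.573).

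Of 10 measured erythroid transcription factors and cofactors, 2 rose and 0 fell in AcB55 (median 0.10) and 3 rose and 1 fell in AcB61 (median 0.06). Rcor1 (0.24 ± 0.12 and 0.19 ± 0.12), a corepressor, rose in both, Nfe2l2 (0.34 ± 0.15), the regulator of antioxidant genes, in AcB55 and Mafg (0.32 ± 0.30) and the haem sensor Bach1 (0.17 ± 0.12) in AcB61. The AcB61 counts were 1 higher and 0 lower without replicates 2, 6 and 8, when Mafg and Rcor1 lost their calls, and 2 and 1 without replicates 3, 5 and 7, when Bach1 and Rcor1 did. Of 15 measured genes of the hypoxia response, to which Bnip3l belongs, 2 rose and 1 fell in AcB55 (median -0.09) and 2 rose and 0 fell in AcB61 (median 0.00). Beside Bnip3l these were Adm (0.18 ± 0.17) and Egln1 (-0.18 ± 0.06) in AcB55 and Vhl (0.34 ± 0.44) in AcB61, and Hif1a passed in neither (0.00 ± 0.12 and -0.07 ± 0.09). The 3 of 15 in AcB55 are close to the 20.7% of all features. All arrays share one estimate of the spread, and without AcB61 replicates 2, 6 and 8 the AcB55 counts were 2 higher and 6 lower, and without replicates 3, 5 and 7 they were 2 and 5. Aldoa (-0.28) and Pgk1 (-0.22), both of glycolysis, fell in AcB55 in each of these fits. Vhl lost its AcB61 call without replicates 2, 6 and 8 (0.06), and Egln1 its AcB55 call without AcB55 replicates 1 and 2 (-0.18).

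Markers of red cell precursors were mostly higher in both strains. Of 9 measured markers, 6 rose and 1 fell in AcB55 (median 0.61) and 7 rose and 0 fell in AcB61 (median 0.83). The one that fell in AcB55 was Ermap (-0.24 ± 0.12). Between the strains 3 passed, against 12.3% of all features, and all were higher in AcB61, unlike Bcl2l1. They were Hbb-y (0.85, limma, adjusted p = 0.000453), Alas2 (0.51, 0.0193) and Ermap (0.25, 0.0381). The Ermap difference was lost without AcB55 replicates 1 and 2 and without AcB61 replicates 2, 6 and 8. The other markers did not pass. Rhd (-0.30), Slc4a1 (-0.21) and Tfrc (-0.03) leaned lower in AcB61, and Car1 (0.16), Bpgm (0.05) and Hba-a1 (0.05) higher. Without AcB61 replicates 3, 5 and 7 the counts were 3 higher and 1 lower, the last being Rhd. The mean of the 9 measured markers per array lay between 0.36 and 0.67 in AcB55 and between 0.49 and 0.87 in AcB61. Slc4a1, the red cell anion exchanger, rose in both (1.28 ± 0.31, n = 5, and 1.07 ± 0.23), as did the transferrin receptor Tfrc (0.68 ± 0.20 and 0.64 ± 0.20) and Alas2 of haem synthesis (0.41 ± 0.33 and 0.92 ± 0.23), while alpha globin, Hba-a1, passed in neither (-0.01 ± 0.15 and 0.04 ± 0.16). In AcB61 the marker mean was highest on replicates 3, 5 and 7 (0.79 to 0.87) and 0.49 to 0.61 on replicates 2, 6 and 8, the sets on which Bcl2l1 was high and low. The single markers did not all share this order. The marker Rhd read 1.26, 1.38 and 1.47 on replicates 3, 5 and 7 and 0.34, 0.43 and 0.38 on 2, 6 and 8. Slc4a1 leaned the other way, at 0.73, 0.93 and 1.07 against 1.45, 1.34 and 0.99. Tfrc showed no such split (0.80, 0.41 and 0.72 against 0.73, 0.70 and 0.93). The AcB55 marker means were 0.67 and 0.58 on replicates 1 and 2 and 0.36 to 0.57 on the others. Without replicates 1 and 2 the AcB55 counts were 5 higher and 0 lower, and Alas2 read 0.25 and did not pass (limma, adjusted p = 0.146). More red cell precursors in a spleen and more RNA of a gene per cell cannot be told apart in these bulk samples, and the part of cell numbers in the rise of the 3 genes was not tested.

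Markers of other cells moved as well. Of 7 macrophage markers, 5 fell and 1 rose in AcB55 and 3 fell and 1 rose in AcB61, with array means of -0.32 to -0.14 and -0.35 to -0.01. Of 8 markers of stroma and endothelium, 7 fell in AcB55, and 6 fell and 1 rose in AcB61, with array means of -0.52 to -0.16 and -0.40 to -0.05. Of 4 granulocyte markers, 1 rose in AcB55, and 2 rose and 1 fell in AcB61, with array means of -0.04 to 1.31 and 0.27 to 0.75. In AcB61 S100a9 (1.10 ± 0.36) and Lcn2 (0.98 ± 0.44) rose and Hdc (-0.29 ± 0.20) fell. The AcB55 median of the granulocyte markers was 0.53, and 0.02 without AcB55 replicates 1 and 2. The array means of 2 platelet markers ran from -0.54 to 0.24 in AcB55 and from -0.66 to -0.26 in AcB61. B cells were measured by Blnk alone (-1.07 and -0.58) and T and NK cells by Satb1 alone (-0.18 and -0.03). Without AcB55 replicates 1 and 2, 3 of the 7 macrophage markers and 3 of the 8 stromal markers fell in AcB55, and Satb1 and the granulocyte gene Lcn2 lost their calls there. Without AcB61 replicates 2, 6 and 8, 2 macrophage and 4 stromal markers fell in AcB61. The part of these cells in the 3 genes was not tested.

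Among 5797 genes with a value on all 14 arrays, those whose log2 ratios ran most like each of the 3 were found by Pearson's r over the 14 arrays. This is a description only, since all arrays share A/J and the array sets move many genes. Nearest to Bcl2l1 were Rpl9 of the ribosome (r = 0.949), Dkc1 (0.92), Ibtk (0.918), Rhd (0.909), the Rh protein of red cells, and Cstf1 (0.908). After each strain's mean was subtracted, r was 0.969 for Rhd and 0.951 for Rpl9. Rhd read 1.26, 1.38 and 1.47 on AcB61 replicates 3, 5 and 7 but 0.34, 0.43 and 0.38 on replicates 2, 6 and 8. Unlike Bcl2l1, Rhd stayed above 0 on every array, rose in both strains (1.13 ± 0.31 and 0.83 ± 0.47) and did not pass between them (-0.30, limma, adjusted p = 0.33), although it did without AcB61 replicates 3, 5 and 7 (-0.62, 0.00446). The gene most opposite to Bcl2l1 was Casp12 (r = -0.956).

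**Figure D4:**
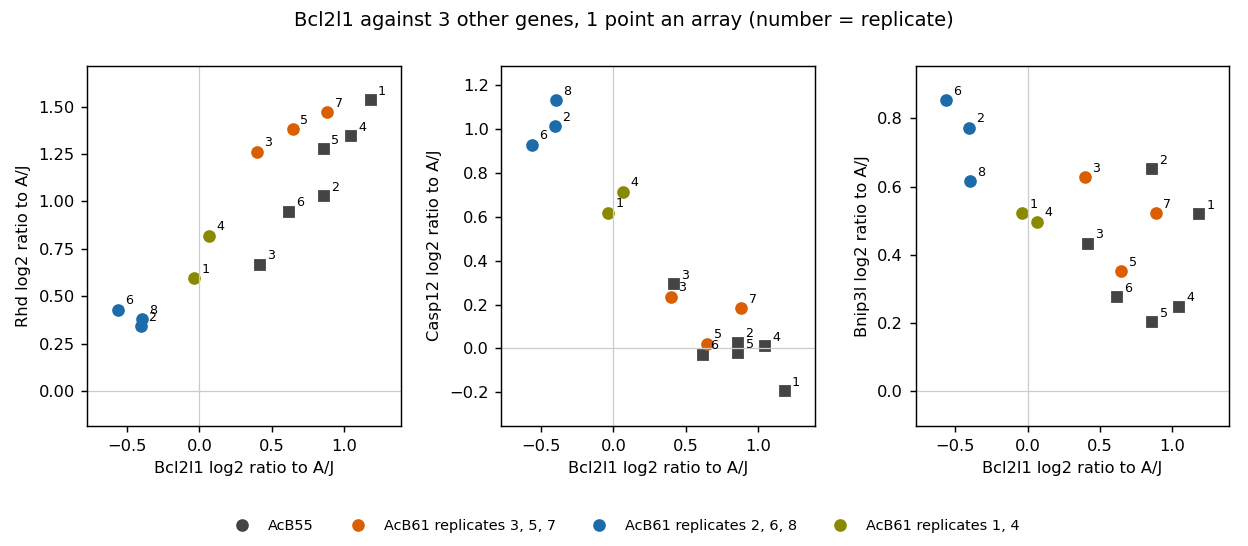
Each point is 1 array, numbered by replicate (squares for AcB55, circles for AcB61), with the Bcl2l1 log2 ratio to A/J on the x axis and that of Rhd, Casp12 or Bnip3l on the y axis. AcB61 replicates 2, 6 and 8 lie at Bcl2l1 values of -0.40 to -0.56 with Rhd at 0.34 to 0.43, and replicates 3, 5 and 7 at 0.40 to 0.88 with Rhd at 1.26 to 1.47.

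Nearest to Bnip3l were Adpgk (r = 0.95), an ADP-dependent glucokinase, Ubac1 (0.948), Mpp1 (0.935), a scaffold of the red cell membrane, Top3b (0.927) and Tomm22 (0.926), the import receptor of the outer mitochondrial membrane. These r values used the average of the Bnip3l features, which were high on different sets of AcB61 arrays, and the likeness to each feature apart was not tested. Mpp1 rose in both strains (0.53 ± 0.25 and 0.84 ± 0.28), as did Ubac1 (0.47 ± 0.34 and 0.73 ± 0.26). Nearest to Foxo3 were Cfdp1 (r = 0.898), A430005L14Rik (0.898), Srrt (0.894), Oog2 (0.893) and Gmps (0.892), the last an enzyme of purine synthesis. Their own mean ratios were small, with the largest in AcB61 for A430005L14Rik (0.31 ± 0.17).

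**Figure D5:**
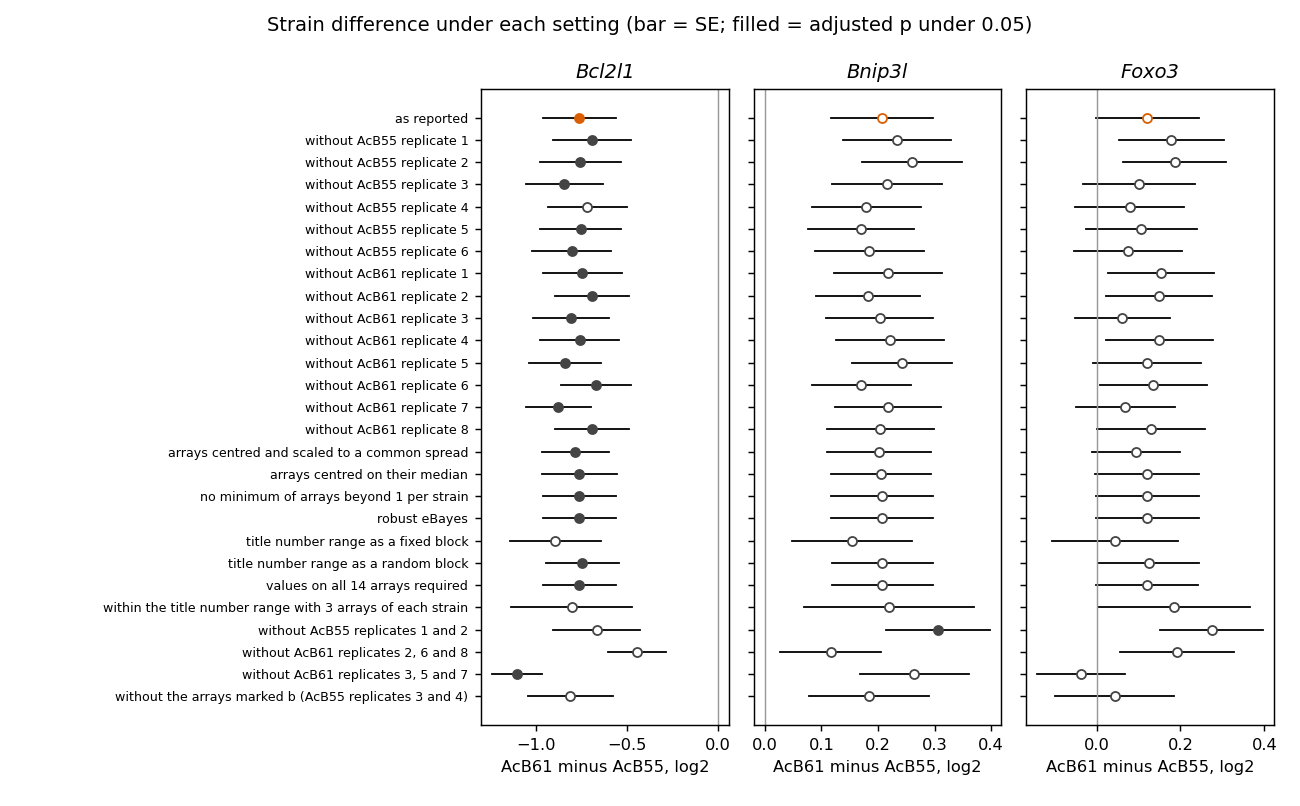
Difference AcB61 minus AcB55 on the log2 scale (x axis, bar = SE) for each gene as reported and under each other setting, with filled points where the adjusted p is under 0.05. Bcl2l1 is below 0 throughout, from -1.10 to -0.44, Bnip3l is above 0 throughout, and Foxo3 runs from -0.04 without AcB61 replicates 3, 5 and 7 to 0.27 without AcB55 replicates 1 and 2.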

How the data were processed

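Spleen RNA of each strain was hybridised with A/J spleen RNA on cDNA arrays with 2 channels. Per the labels, the deposited values are ratios of channel 1 to channel 2, held here as log2. Images were quantified with QuantArray 3.0 and imported into GeneSpring, per the labels' protocols, and the normalization, dyes and log base are not given in the sources used here; base 2 was taken. Array medians lay between -0.0205 and 0.00867, and values were used as deposited. The number of arrays limits the precision.

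Symbols came from the repository's platform annotation, and a gene with several probes took their mean, array by array. Features with values on at least 3 arrays of each strain (13045, of them 6286 genes) entered limma 3.58.1 (R 4.3.3; lmFit with a mean per strain, eBayes, tested on simulated data). P-values are two-sided with Benjamini-Hochberg adjustment over all features and a threshold of 0.05, and intervals are 95%. Tests against 0 leave out the spread among A/J mice. Named genes of each list are those past the threshold with the largest change, beside the markers and the 5 most similar genes of each member; values of genes that did not pass were added after they were seen. The genes, lists and alternatives were chosen with earlier results of these data known. Correlations between the 3 genes over arrays had been planned and are not given, since the arrays fall into sets of fewer than 6. Alternatives were centring, scaling, filters, robust eBayes, separate probes, exact tests, number ranges of the titles and arrays left out. Figures used Python 3.11.15 with matplotlib 3.10.9.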

Additional observations from a re-analysis of the deposited data

Results flagged for a closer look

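Bcl2l1 was singled out because the strains differed in the same contrast with A/J by a test of the difference itself: AcB61 minus AcB55 was -0.76 (limma, adjusted p = 0.0225). It was 0.83 in AcB55, above 0 on 6 of 6 arrays, and 0.07 in AcB61, above 0 on 4 of 8 arrays. Among the 12 sets of values looked at for a single array far from the others (the 3 genes and the 3 features of Bnip3l in each strain), 0 held one; chance gives about 1 in 20.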

How the results depend on the processing

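For the 3 genes in the 3 comparisons, 126 values came from settings other than single arrays left out, and 116 of them kept direction and side of the threshold. Many of these means could not change. Leaving out arrays of 1 strain keeps the mean of the other, and the filters kept all values of the 3 genes. Separate probes keep the means of Bcl2l1 and Foxo3, which have 1 feature each. The 116 is therefore no measure of robustness. Bcl2l1 in AcB61 was 0.39 without AcB61 replicates 2, 6 and 8 and -0.27 without replicates 3, 5 and 7, both chosen after seeing the data. Its strain difference no longer passed at -0.44 (without AcB61 replicates 2, 6 and 8), -0.66 (without AcB55 replicates 1 and 2), -0.81 (without the AcB55 arrays marked b), -0.89 (title number range as a block) and -0.80 (within the range with 3 arrays of each strain). Without AcB55 replicates 1 and 2 the Bnip3l difference passed at 0.31 and Foxo3 in AcB55 did not, at 0.16. The Foxo3 difference was -0.036 without AcB61 replicates 3, 5 and 7. With each array left out in turn, Bcl2l1 ran from -0.042 to 0.17 in AcB61 and from -0.87 to -0.67 between the strains, Foxo3 in AcB55 from 0.25 to 0.36, and the features called between the strains from 854 to 1694, against 1601 in all. That count was 705 without the b arrays, 244 with the range as a block, 1 within the range, 2545 without AcB61 replicates 2, 6 and 8 and 2781 without 3, 5 and 7. The cause of these changes was not tested. Of 204 list counts, 167 stayed within 1.5 times the reported count. These counts add higher and lower genes, so a change of direction is hidden. Between the strains, the anti-apoptotic list went from 1 lower to 1 higher without AcB61 replicates 2, 6 and 8 and counts as unchanged. Some lists hold few measured genes, and leaving out arrays of 1 strain keeps the other strain's means. The 167 is therefore no measure of how stable the lists are. No paired analysis was possible because the labels give the arrays no replicate numbers shared between the strains. No signal over background was used here, so the reliability of dim features is unknown.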

Other observations

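Neighbours of the 3 genes on their chromosomes were looked at by order alone, taking the 10 tested genes on each side (GRCm38.p6 gene table). Of the 20 around Bcl2l1, 2 rose and 4 fell in AcB55, and between the strains 1 was higher in AcB61, Zcchc3 (0.24, limma, adjusted p = 0.0439), the direction opposite to Bcl2l1. Of the 20 around Bnip3l, 5 rose and 2 fell in AcB55 and 3 rose and 2 fell in AcB61, among them Slc25a37, the mitoferrin gene, which rose in both strains (in AcB55 not without replicates 1 and 2), and Clu, an extracellular chaperone, which fell in AcB61 (-0.89). Of the 20 around Foxo3, 3 were higher and 2 lower in AcB61 than in AcB55, with Cd24a, a surface protein of red cell precursors and B cells, 0.71 higher (limma, adjusted p = 0.00402). The share of all features called was 20.7% in AcB55, 23.8% in AcB61 and 12.3% for the strain difference. All genes named here were chosen after their values were seen.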
